A study of Mus musculus with 8 samples.

Results

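The granins Scg2, Scg3, Scg5, Chga, Chgb and Vgf and the peptide processing enzymes Pcsk1, Pcsk2, Cpe and Pam were examined across a time course of T3, the active thyroid hormone, in cultured mouse cerebellar neurons. These 10 genes were listed by name, and every probe-set that carries 1 of them as its single gene symbol was taken. A probe-set is a set of short oligonucleotides that together read 1 transcript. The group was chosen by the signals of the treated and untreated arrays at 48 h, where Scg2 and Chgb had been seen among the probe-sets highest with T3, so the differences at 48 h are given as a description and were not tested. Of the 10 genes 9 had a probe-set, 10 probe-sets in all, among 18193 genes with a probe-set of their own on the array, and 8 genes passed the filter on low signals and entered the tests, which covered 10194 genes. Pcsk2 had no probe-set of its own on this array, and Pcsk1 stayed below the filter. The filter used the mean over all 8 arrays and not the level in a single group.

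The cells came from pooled cerebella of wild-type newborn mice, P4 to P7 in the sample labels and P1 to P4 in the methods, and were plated for 48 h in serum-free medium before treatment. At 6, 16, 24 and 48 h 1 culture with T3 at 0.1 µM and 1 untreated culture prepared at the same time from the same cell batch were each read on 1 whole-genome array, so 8 arrays were available and no condition had a replicate. Values are signal intensities on a linear scale, which the authors computed and scaled to the same trimmed mean of 100 on every array. A difference between a treated and an untreated array rests on 1 array each, and a difference between time points cannot be told apart from a difference between cell preparations. In such mixed cultures fewer cells of a type and less RNA per cell cannot be told apart either. The pair at 24 h stood apart from the others, with a spread (SD) of the log2 differences over all 18015 probe-sets in the tests of 0.603 against 0.292 to 0.316 at the other time points.

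Granins are acidic proteins of the regulated secretory pathway. They condense in the trans-Golgi network, help to form dense core vesicles and are released with neuropeptides on stimulation, and several of them are themselves cut into active peptides. The convertases Pcsk1 and Pcsk2 cut prohormones at pairs of basic residues, Cpe, carboxypeptidase E, trims these residues from the new ends, and Pam amidates the finished peptides. In neurons the genes of several granins are known to be induced through cAMP and CREB, the factor that binds the cAMP response element.

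Promoters are shown for the 3 members that hold the full palindrome of this element, TGACGTCA, and for Chga, which holds the shorter TGACG. They are given as a description of the genes, and a link between these sites and the signals was not tested. The RefSeq table of promoters (GRCm38.p6) has a window from 250 bases before to 50 bases after the transcription start for 8 of the 10 genes, and none for Vgf and Cpe. Each sequence below holds the 150 bases before the start, 5′ to 3′ on the strand of the gene. Capitals mark the palindrome TGACGTCA, or for Chga the shorter TGACG.
Scg2, chr1:79440027-79440176, minus strand: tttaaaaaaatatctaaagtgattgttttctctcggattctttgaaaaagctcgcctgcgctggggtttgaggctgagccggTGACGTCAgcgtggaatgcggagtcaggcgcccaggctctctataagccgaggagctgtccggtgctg
Chgb, chr2:132781492-132781641, plus strand: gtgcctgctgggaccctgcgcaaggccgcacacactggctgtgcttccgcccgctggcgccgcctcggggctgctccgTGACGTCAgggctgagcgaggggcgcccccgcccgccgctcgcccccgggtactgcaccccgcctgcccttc
Pcsk1, chr13:75089707-75089856, plus strand: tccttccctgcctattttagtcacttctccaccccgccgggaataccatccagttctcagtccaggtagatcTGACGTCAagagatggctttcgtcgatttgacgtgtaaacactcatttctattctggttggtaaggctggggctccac
Chga, chr12:102554791-102554940, plus strand: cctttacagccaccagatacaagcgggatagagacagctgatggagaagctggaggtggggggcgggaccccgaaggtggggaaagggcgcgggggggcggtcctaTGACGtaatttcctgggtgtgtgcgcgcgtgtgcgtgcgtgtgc

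The palindrome began 68 bases before the start of Scg2, 72 bases before that of Chgb and 78 bases before that of Pcsk1, whose signal was low on every array. Of all 27025 genes with a window, 2.03% hold it. The shorter TGACG, searched on both strands and contained in the palindrome, was present for 7 of the 8 genes and for 23% of all genes. Scg3, Scg5, Chga and Pcsk2 were among the 7, and Pam was the exception. AGGTCA, the unit that thyroid hormone response elements repeat, was searched in the same way and was present for 0 of the 8 genes (18.1% of all). Its direct repeat with a spacing of 4 bases, the classical element, was present for 0 as well (0.0148% of all). Only the exact letters were sought, so elements with other letters in a unit, such as those the paper lists for Hr and Klf9, would be missed. The exact repeat is so rare that its absence here carries no information. A match of letters is no measure of binding, and the absence of one concerns these windows only.

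Scg2, secretogranin II, is the precursor of the peptide secretoneurin. Its signal in the untreated cultures was 422.1 at 6 h, 100.7 at 16 h, 240.2 at 24 h and 37.6 at 48 h. With T3 it was 337.1, 134.4, 797.6 and 153.1 at the same time points. The treated culture was thus lower at 6 h, slightly higher at 16 h and far higher at the later time points, by 3.32-fold at 24 h and 4.07-fold at 48 h. Scg2 ranked 11 of 18015 among the probe-sets higher with T3 at 48 h, the difference that chose it, and 54 at 24 h, a pair of arrays that took no part in the choice. Over the 3 pairs at 6, 16 and 24 h the mean log2 difference was 0.61 (SE 0.37, 95% interval -0.29 to 1.5, limma adjusted p = 0.765), and without the 24 h pair it was 0.046. The ranges of the treated and of the untreated arrays overlapped for Scg2 and for each of the other 7 tested genes. These ranges pool the time points, which differ in level, so the overlap is no measure of a T3 effect. Its share over all probe-sets was not counted.

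Chgb, chromogranin B, is a main soluble protein of dense core vesicles. Untreated cultures had 725.8, 108.3, 823.9 and 25.0 at 6, 16, 24 and 48 h, and treated cultures 664.3, 114.7, 482.5 and 100.1. At 6 and 16 h the cultures of a pair were nearly alike, at 24 h the treated one was lower (0.586-fold) and at 48 h it was 4-fold higher, rank 12. The untreated culture at 48 h had the lowest signal of the 8 arrays, 33-fold below the highest. Scg2 and Chgb were thus higher with T3 at 48 h by nearly the same factor, whereas at 24 h their differences had opposite signs. The mean over the first 3 pairs was -0.27 (SE 0.19, adjusted p = 0.765), and 0.30 when the 48 h pair was included, an alternative added after the data had been seen.

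Chga, chromogranin A, is the precursor of vasostatin and catestatin. It had 143.0, 33.4, 236.6 and 18.2 without T3 and 209.9, 48.5, 125.0 and 36.9 with it. The treated culture was higher at 6, 16 and 48 h (1.47-fold, 1.45-fold and 2.03-fold) and lower at 24 h (0.528-fold). The mean over the first 3 pairs was 0.06 (SE 0.32, adjusted p = 0.963), and 0.55 without the 24 h pair (adjusted p = 0.501). With 32 added to every signal, which damps differences between low signals, the log2 difference at 48 h was 0.46 in place of 1.02.

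Scg5, the chaperone 7B2, binds the proform of Pcsk2 and is needed for its activation. Its signal was 668.9, 118.8, 722.0 and 74.0 without T3 and 611.1, 178.5, 246.1 and 124.5 with it. The 24 h pair held the largest difference, with the treated culture at 0.341 of the untreated one, rank 301 among the probe-sets lower with T3. At 16 and 48 h the treated culture was the higher one (1.5-fold and 1.68-fold). The mean over the first 3 pairs was -0.37 (SE 0.38, adjusted p = 0.803) and 0.23 without the 24 h pair.

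Scg3, secretogranin III, tethers chromogranin A to the vesicle membrane. Its signals were 936.4, 341.2, 768.9 and 81.1 without T3 and 826.0, 351.7, 578.3 and 112.8 with it. No pair reached 2-fold, the differences running from 0.752-fold at 24 h to 1.39-fold at 48 h. The mean over the first 3 pairs was -0.18 (SE 0.13, adjusted p = 0.766).

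Vgf, a precursor of several neuropeptides that growth factors induce in neurons, had 185.7, 46.6, 62.5 and 32.7 without T3 and 142.6, 49.2, 136.2 and 48.9 with it. As with Scg2, the treated culture was lower at 6 h and more than 2-fold higher at 24 h (2.18-fold), and at 48 h it was at 1.5-fold. With 32 added to every signal the log2 difference at 24 h was 0.83 in place of 1.12, within 2-fold. The mean over the first 3 pairs was 0.27 (SE 0.30, adjusted p = 0.812) and -0.15 without the 24 h pair.

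**Figure D1:**
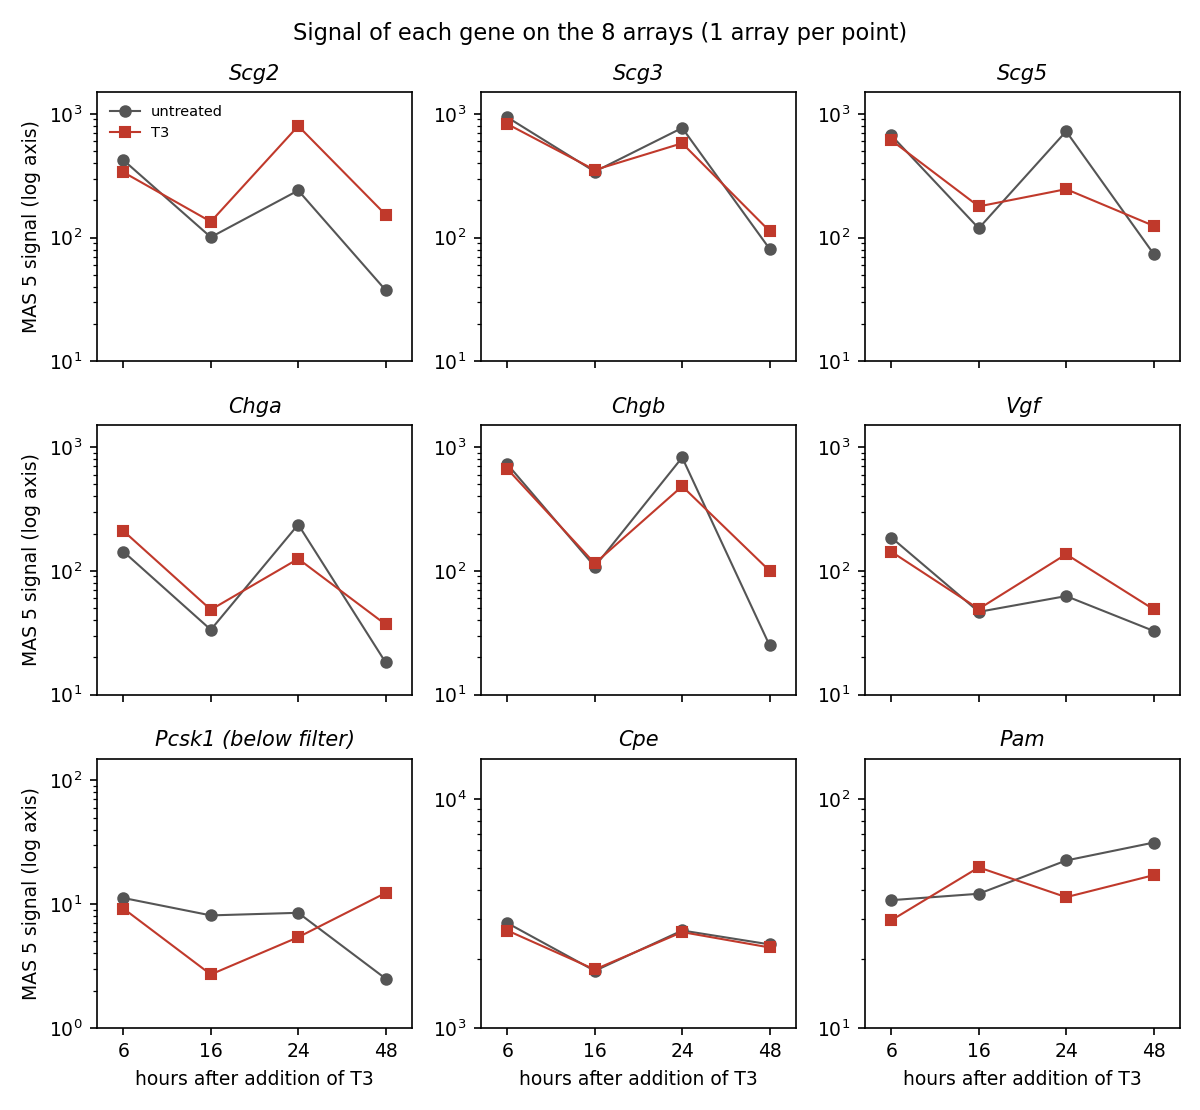
Signal (log axis, a separate range per panel) of the 9 genes with a probe-set against the hours after addition of T3, with time points evenly spaced, grey circles for untreated and red squares for T3, 1 array per point. Scg2 separates between the treatments at 24 and 48 h, Chgb at 48 h, and all 6 granins are higher at 6 and 24 h than at 16 and 48 h.

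The processing enzymes behaved otherwise. Cpe had the steadiest signal of the 8 tested genes, 2867.1, 1773.4, 2661.2 and 2314.2 without T3 and 2660.6, 1797.9, 2619.1 and 2244.0 with it. The ratio of the treated to the untreated array lay between 0.928 and 1.01 in the 4 pairs, and the mean over the first 3 pairs was -0.04 with an interval of -0.20 to 0.13 (adjusted p = 0.889). A second probe-set of Cpe had signals of 0.7 to 10.8, below the median of every array, and was not tested. Pam had 36.1, 38.5, 53.8 and 64.4 without T3 and 29.5, 50.2, 37.2 and 46.4 with it. It was lower with T3 at 6, 24 and 48 h (0.817-fold, 0.691-fold and 0.720-fold) and higher at 16 h, with a mean of -0.15 (SE 0.24, adjusted p = 0.875) over the first 3 pairs. Pcsk1 had 11.2, 8.1, 8.5 and 2.5 without T3 and 9.2, 2.7, 5.4 and 12.3 with it, all below the median signal of their array, which lay between 14.8 and 17.7. No order can be read from its values at that level.

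Of the 8 tested genes 0 passed the test of a T3 effect over the pairs at 6, 16 and 24 h in either direction, as did 0 of all 18015 probe-sets (percent called 0 and 0), 924 of which had an unadjusted p under 0.05 in the limma fit. With 3 pairs and this spread the intervals of Scg2 and Scg5 still include log2 effects beyond 1. Klf9 and Dbp, established T3 target genes taken as controls, did not pass either (adjusted p = 0.258 for both), although their signals were higher with T3 at every time point, with log2 differences of 0.60 to 1.35 and of 0.97 to 1.53. Of the 7 controls listed 3 were tested. Mbp, also tested, had log2 differences of 0.61, 0.44, -1.58 and 0.03 at 6, 16, 24 and 48 h (limma adjusted p = 0.918). Hr, Thrb and Nrgn were below the filter. Without the 24 h pair 4 probe-sets passed, 2 of Klf9 (log2 differences of 1.02 and 2.04), 1 of Dbp (1.49) and 1 of the semaphorin Sema3f (-1.41), and none was of a granin or processing enzyme.

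The differences at single time points were counted at 2-fold. At 6 and 16 h 0 of the 8 genes were beyond it, with backgrounds over all probe-sets of 0.527% higher and 0.328% lower for the first of them, 0.433% and 0.305% for the second. At 24 h Scg2 and Vgf were over 2-fold higher (3.67% of all probe-sets) and Scg5 over 2-fold lower (5.16%). At 48 h Scg2, Chgb and Chga were over 2-fold higher (0.833%) and 0 were lower (0.344%), counts from the contrast that chose the group. With 32 added to every signal Scg2 (1.61) and Scg5 (-1.44) remained beyond 2-fold at 24 h, where 1.29% of all probe-sets were higher and 2.89% lower. Scg2 (1.41) and Chgb (1.21) remained so at 48 h (0.0666% higher and 0.0999% lower), and 0 genes were beyond it at 6 h (0.0833% and 0.0444%) or at 16 h (0.0777% and 0.05%). The signs were shared at 16 and 48 h. At 16 h all 8 genes were higher with T3, with a median log2 difference of 0.23, beside 4924 of 10194 genes and a median of -0.01 over all, and at 48 h all 6 granins were higher, with a median of 0.89, beside 4673 of 10194 and -0.02, while Cpe and Pam were not. The signs at 48 h come from the contrast that chose the group, whatever the scaling, and are a description. Signals of the granins also correlate over the arrays, so their signs are not independent at any time point. At 6 h 1 of the 8, Chga, was higher, beside 5107 of 10194 genes, and at 24 h 2 of the 8, Scg2 and Vgf, beside 5357 of 10194. When each array was centred on its median signal, which moves the median difference of all probe-sets by -0.087 at 6 h and -0.148 at 48 h, the 6 granins remained higher at 48 h, with log2 differences of 1.88 for Scg2, 1.85 for Chgb, 0.87 for Chga, 0.60 for Scg5, 0.43 for Vgf and 0.33 for Scg3. The whole array was then split into 84 probe-sets over and 106 under 2-fold at 48 h, against 150 and 62 as deposited.

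**Figure D2:**
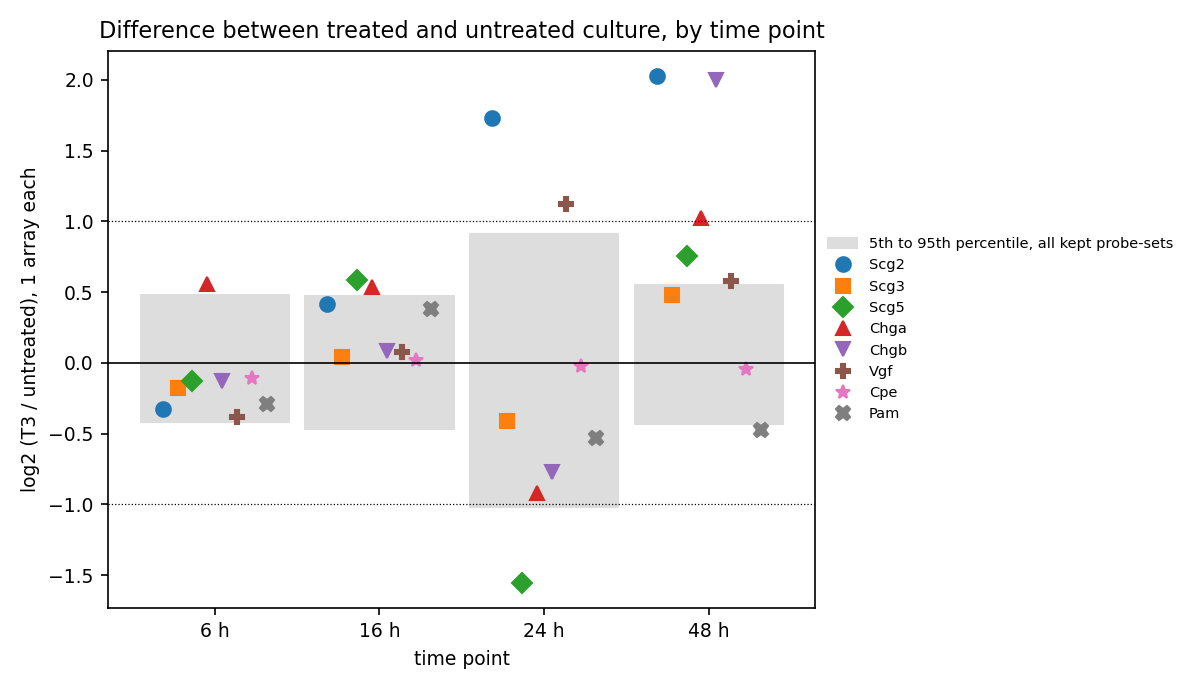
Log2 ratio of the T3 to the untreated array for the 8 tested genes at each time point (1 array each), over the range from the 5th to the 95th percentile of all probe-sets in the tests (grey). Dotted lines mark 2-fold, and Scg2 and Chgb lie near 2.0 at 48 h, while at 24 h Scg2 and Vgf lie above and Scg5 below the grey range.

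The T3 effect at 24 h was compared with the mean of those at 6 and 16 h, since the 24 h pair stood apart. It asks whether that single pair departed from the earlier ones and, with 1 pair at 24 h, cannot tell a T3 effect that changes with time from a deviating culture. Scg2 had a larger difference at 24 h by 1.69 (SE 0.32, interval 0.93 to 2.44, adjusted p = 0.0317). Scg5 and Chga had a lower one, by -1.78 (SE 0.30, adjusted p = 0.0253) and -1.47 (SE 0.24, adjusted p = 0.0242). Scg2 and this pair of granins thus departed in opposite directions from their own earlier differences. Vgf came near the threshold at 1.28 (SE 0.30, interval 0.57 to 1.98, adjusted p = 0.0510) and passed it with 32 added to every signal (0.97, adjusted p = 0.0445). Chgb (-0.75, adjusted p = 0.0677), Scg3 (-0.34, 0.263), Pam (-0.58, 0.423) and Cpe (0.02, 0.919) did not pass. Over all probe-sets 3.21% passed with a larger and 4.22% with a lower difference at 24 h, and among the 8 genes 1 and 2 did. This contrast sets 1 pair against 2 pairs, leaves 1 residual degree of freedom per probe-set and rests on the variances shared across the array. Its residual comes only from how far the pairs at 6 and 16 h disagree, while the 24 h pair had the wider spread. The SE and p values can therefore be too small. Without the variance trend 0 probe-sets passed (4398 at an unadjusted p under 0.05), with adjusted p = 0.117 for Scg2, 0.111 for Scg5 and 0.0944 for Chga.

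**Figure D3:**
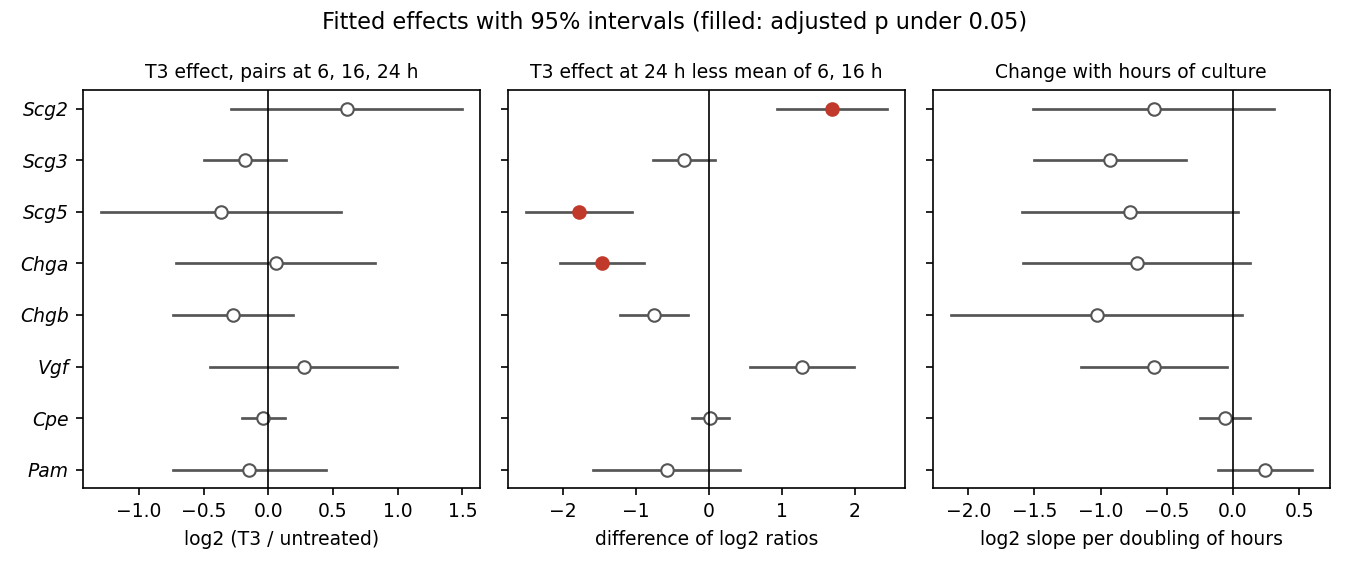
Fitted effects with 95% intervals for the 8 tested genes, as log2 differences in the left and middle panels and as the log2 slope per doubling of the hours on the right, with filled points for an adjusted p under 0.05. Scg2, Scg5 and Chga pass in the comparison of 24 h with the earlier pairs, and the slopes of the 6 granins are negative but do not pass.

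Over the hours of culture the signals of the granins did not run steadily. The 6 h arrays were above the 16 h arrays for each of the 6, the 24 h arrays were above the 16 h arrays again, and the 48 h arrays were below the 24 h arrays. All 4 arrays at 6 and 24 h were above all 4 at 16 and 48 h for 7 of the 8 genes, the 6 granins and Cpe, against 15.1% of all probe-sets, with 14.2% for the reverse order. The geometric mean at 6 and 24 h was 8.86-fold that at 16 and 48 h for Chgb, 5.35-fold for Chga, 4.39-fold for Scg5, 4.33-fold for Scg2, 4.21-fold for Scg3 and 2.80-fold for Vgf. For Cpe it was 1.34-fold and for Pam 0.779-fold, and over all probe-sets the median log2 difference was 0.02. This order of the time points was noticed in the data and is a description.

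The slope on the log2 of the hours, with a random block for each time point, was negative for all 6 granins, with a median of -0.75 against -0.01 over all genes, and passed for 0 of the 8 genes (1.75% of all probe-sets rose and 0.422% fell). Scg3 came nearest, with -0.93 per doubling of the hours (SE 0.25, interval -1.5 to -0.35, unadjusted p = 0.00538, adjusted p = 0.0794). Those of Chgb (-1.03, SE 0.49), Scg5 (-0.78, SE 0.36), Chga (-0.73, SE 0.38), Scg2 (-0.60, SE 0.40) and Vgf (-0.60, SE 0.24) had adjusted p between 0.177 and 0.381. Without the 24 h arrays 5 of the 8 genes fell, Chgb by 1.25, Scg3 by 1.07, Chga by 0.90, Scg5 by 0.90 and Vgf by 0.67 per doubling (adjusted p between 0.00244 and 0.0289), but 14.2% of all probe-sets fell and 13.4% rose in that fit. The 48 h arrays, whose difference chose the group, enter these fits. A low untreated signal at 48 h, 37.6 for Scg2 and 25.0 for Chgb, raises that difference and also lowers the slope. The slopes are thus not independent of the choice and are no separate support. Without the 48 h arrays 0 passed and the slopes of the granins lay between -0.14 for Scg2 and -0.56 for Vgf. Cpe had a slope of -0.06 and Pam of 0.24, with adjusted p of 0.670 and 0.365.

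As a description over the 8 arrays, which share their pairs and time points, the log2 signals of the granins correlated at r = 0.720 (Scg2 with Scg5) to 0.979 (Chga with Chgb). With Cpe they correlated at 0.455 to 0.703 and with Pam at -0.796 to -0.497. Among 10193 other genes the 5 whose log2 signals were most like those of Scg2 were Serac1 (r = 0.972), Sgtb (0.958), Tasor (0.953), Caly (0.951) and Zfp788 (0.948). For Chgb they were Mmp24 (0.996), Kazn and Amph (0.994 each), Ppp1r1a and Camta1 (0.990 each). Of the other granins Vgf was the most like Scg2 (rank 66) and Chga the most like Chgb (rank 33).

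The genes around the granins in the same pathway were taken from lists. Of 15 other convertases, carboxypeptidases and their inhibitors 9 were tested, and 0 passed for T3 or for the hours. Pcsk1n, proSAAS, the granin-like inhibitor of Pcsk1, was the only one beyond 2-fold at a time point, with 142.9 untreated and 69.1 treated at 24 h, and with 79.3 and 73.1 at 6 h, 43.3 and 30.9 at 16 h, then 15.4 and 20.0 at 48 h. Its higher levels at 6 and 24 h follow the order seen in the granins. Over all genes 594 of 10194 were over 2-fold lower with T3 at 24 h. Of 36 genes of dense core vesicle formation and release 26 were tested, 0 passed for T3 or for the hours, and the median log2 difference was 0.06 at 24 h and 0.11 at 48 h. At 24 h Ptprn, a membrane protein of these vesicles (1.15), and Hid1, which acts in their maturation (1.09), were over 2-fold higher with T3, and Cadps2, which primes them for release (-1.54), the relative of Ptprn named Ptprn2 (-1.3) and Syt11, a synaptotagmin that binds no calcium (-1.02), over 2-fold lower. These were 2 higher and 3 lower of the 26, beside 286 and 594 of 10194 genes. At 48 h Snap25 of the fusion machinery was over 2-fold higher (1.48), with 36.7 untreated and 102.3 treated, beside 77 of 10194 genes. In the comparison of 24 h with the earlier pairs Ptprn (1.245) and Hid1 (1.3) had a larger difference. Cadps2 (-1.40), Ptprn2 (-1.43) and Syt11 (-1.13) had a lower one. With 1 pair at 24 h these values are a description.

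Of the 44 neuropeptide and neurotrophin genes, the cargo of these vesicles, 38 had a probe-set and only 8 were above the filter. Grp, gastrin-releasing peptide, had 211.4 in the untreated culture at 24 h and 20.3 with T3 (log2 -3.38), and 59.7 and 21.6 at 48 h (-1.47). The other 4 arrays had 27.6 to 37.8, so the high signals lay in the untreated cultures. Cbln1, the secreted organizer of parallel fibre synapses, had 1476.9 and 174.1 at 24 h (-3.09). These were 2 of the 8 tested over 2-fold lower at 24 h, beside 594 of 10194 genes. In the comparison of 24 h with the earlier pairs Grp was at -3.14 and Cbln1 at -2.96.

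Genes that answer to neuronal activity and cAMP were examined because several granins belong among them. Of 25 listed 16 were tested, and 0 passed for T3 or the hours. At 24 h 14 of the 16 were higher with T3, with a median log2 difference of 0.65, beside 5357 of 10194 genes and a median of 0.03 over all. Over 2-fold higher were 5 of the 16, beside 286 of 10194, namely Fos (1.27), Egr2 (1.02), Nr4a1 (1.28), Nr4a2 (1.39) and Ier2 (1.28). At 6, 16 and 48 h the medians were -0.06, 0.04 and -0.04. Fos, the first of the immediate early genes, had 1139.8, 218.1, 528.6 and 267.3 without T3 and 775.1, 207.9, 1275.2 and 565.6 with it, so that its pairs had the same signs as those of Scg2 at 6, 24 and 48 h. At 16 h Fos was slightly lower with T3 and Scg2 slightly higher. The sign of Scg2 at 48 h comes from the contrast that chose it. At 48 h 8 of the 16 were higher with T3, beside 4673 of 10194 genes, and Fos was the only one over 2-fold. Fos is thus no measure of the list at 48 h. In the comparison of 24 h with the earlier pairs Fos was at 1.58.

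**Figure D4:**
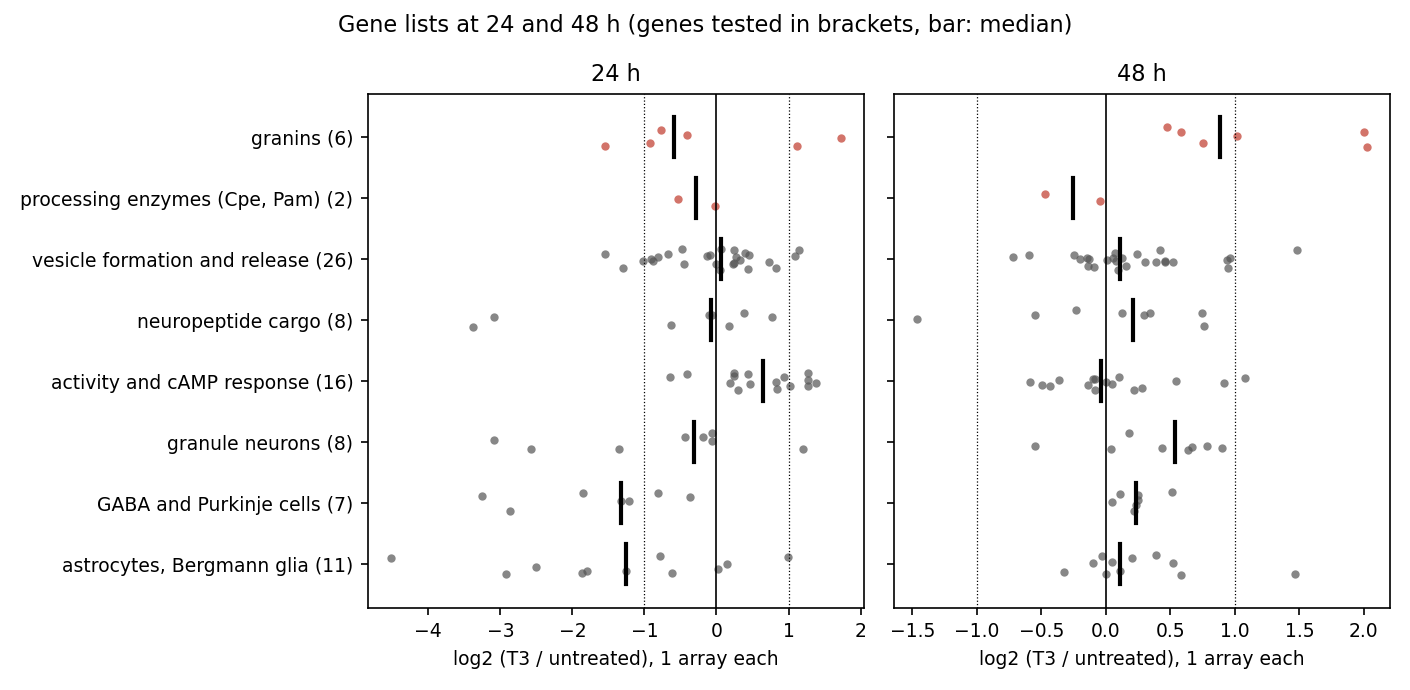
Log2 ratio of the T3 to the untreated array at 24 h (left) and 48 h (right) for each tested gene of 8 lists (points, number of genes in brackets) with the median (bar) and 2-fold (dotted lines). The granins are spread to both sides of 0 at 24 h and all lie above 0 at 48 h. Markers of granule neurons, GABA neurons and astrocytes lie mostly below 0 at 24 h.

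Markers of granule neurons, taken as a sum, had high and low arrays in common with the granins. The summed signal of the granule neuron markers (11 of 12 with a probe-set) was 6484.2 and 6301.7 at 6 h without and with T3, 2087.0 and 2360.3 at 16 h, 6244.9 and 4146.4 at 24 h, then 720.8 and 1057.5 at 48 h, and that of the 6 granins was 3081.9 and 2791.0, 749.0 and 877.0, 2854.1 and 2365.7, and 268.6 and 576.3. Both sums were high at 6 and 24 h and lowest in the untreated culture at 48 h. Neurod1 and Rbfox3 weighed most in the first sum, with 2671.7 and 1613.7 untreated at 6 h. Untreated Grin2c (342.6, 179.1, 41.0 and 20.5) and Zic2 (196.5, 178.6, 106.4 and 82.6) fell at each step. The other tested markers were higher at 24 h than at 16 h without T3. The other neuronal lists also had their lowest sum in the untreated culture at 48 h, so this low was not particular to granule neurons. Their sums ran from 640.3 to 3156.2 for GABA neurons and Purkinje cells and from 4288.9 to 9309.3 for granule precursors. For unipolar brush cells and nuclear neurons they ran from 185.3 to 1261.8. At 48 h 7 of 8 tested granule neuron markers were higher with T3 (median log2 0.54) and 7 of 7 markers of GABA neurons and Purkinje cells (median 0.24), beside 4673 of 10194 genes. So were 5 of 5 microglia markers (median 0.40), 5 of 9 granule precursor markers (0.26) and 2 of 5 oligodendrocyte lineage markers (-0.01). At 24 h 5 of the 7 GABA neuron and Purkinje cell markers were over 2-fold lower with T3 (median -1.32), beside 594 of 10194 genes. So were 6 of 11 astrocyte and Bergmann glia markers (-1.25), 3 of 5 oligodendrocyte lineage (-1.58) and 3 of 5 microglia markers (-1.16). The same held for 3 of 8 granule neuron (-0.32), 3 of 9 granule precursor (-0.50) and 1 of 4 unipolar brush cell and nuclear neuron markers (-0.83). Of the vascular and meningeal markers it held for 0 of 11 (0.38). The summed signal of the astrocyte and Bergmann glia markers was 10082.7 in the untreated culture at 24 h and 3283.5 to 5672.9 on the other 7 arrays. Microglia markers had their lowest sums at 24 h (151.7 untreated and 125.0 treated) and their highest at 48 h (1196.0 and 1543.7). Vascular and meningeal markers had sums of 2181.4 and 2669.8 with and without T3 at 6 h and of 15676.9 and 16457.2 at 48 h, and 5 of 11 tested rose over the hours, Col1a1 (1.25), Col1a2 (1.28), Col3a1 (1.10), Lum (1.46) and Igf2 (0.74), while of the granule neuron markers Grin2c fell (-1.3). Of the other neuronal markers Lhx1 (-0.98) and Uncx (-1.17) fell and Foxp2 rose (0.62), as did the T3 target Dbp (0.61). The part of cell composition in the differences of the granins was not tested. Markers of neuroendocrine cells, in which granins are abundant, had a probe-set for 9 of 11 genes, of which Insm1, which granule cell precursors also express, was the only one above the filter. Pomc had signals of 19.8 to 46.0, above the median of every array, and Pnmt reached 36.6, while the highest signals of the other 6 lay between 8.7 for Prl and 14.6 for Dbh.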

How the data were processed

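The deposited table holds 1 signal intensity per probe-set on a linear scale for each of 8 arrays (Affymetrix GeneChip, whole mouse genome), which the authors computed with GCOS and MAS 5 after linear amplification of the RNA and scaled to a trimmed mean (2% off each end) of 100. Precision is limited by the number of arrays, 1 per condition. Of 45101 probe-sets 64 controls were left out. Of the others 34945 carry 1 gene symbol in the platform annotation (34741 with a gene ID in RefSeq), 932 several and 9160 none, and only those with 1 were named. Columns of values left unused: 0.

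Signals were floored at 1 before taking log2. The filter asked for a mean log2 signal, over all 8 arrays, of at least the 60th percentile (4.95, a signal of 31), and left 18015 probe-sets. A gene is given by its brightest probe-set. T3 was fitted with limma on the 6 arrays at 6, 16 and 24 h with the time point as a block, since the methods pair the cultures of a time point by cell batch (prior degrees of freedom 4.14). The hours were fitted on all 8 arrays with treatment as a covariate and a random block for each time point (duplicateCorrelation, 0.569), and the T3 effect at 24 h was set against the mean of 6 and 16 h. All had a variance trend, with the Benjamini-Hochberg adjustment across every probe-set that passed the filter (threshold 0.05). No p value rests on a spread between replicate cultures, since there were none. Those for T3 rest on how the difference within a pair varied between time points, which mixes cell batches with any change of the T3 effect. Those for the 24 h comparison rest on the disagreement of the 6 and 16 h pairs, and those for the hours on departures from the slope.

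The members and lists were chosen with earlier results of these data known. All members were named, and of the other lists the genes that passed for T3 or the hours or, for cargo, release and the like, were beyond 2-fold, and the 5 genes most correlated with Scg2 and with Chgb. Alternatives were other normalizations (quantile, median centring), 32 added to every signal, no filter or the 75th percentile, no variance trend, no block, the mean of a gene's probe-sets, 1.6-fold, and each time point left out. The T3 fit and the fits over the hours were tried on simulated data with the same spread at every time point. The comparison of 24 h with the earlier pairs was not tried in this way. R 4.3.3, limma 3.58.1, Python 3.11.15, pandas 2.3.3, numpy 2.4.6 and matplotlib 3.10.9 were used. Detection calls, comparison p values and experiments other than the arrays were not used here.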

Additional observations from a re-analysis of the deposited data

Results flagged for a closer look

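For 3 granins the difference between the treated and the untreated culture at 24 h departed from the mean of those at 6 and 16 h, tested in limma with variances shared across the array. For Scg2 the difference was 1.69 on the log2 scale, with the treated culture higher at 24 h. For Scg5 it was -1.78 and for Chga -1.47, with the treated culture lower at 24 h. Each rests on 1 pair of arrays at 24 h, the pair that also held the most probe-sets beyond 2-fold, with 1 residual degree of freedom, and none passed without the variance trend. The residual holds no spread of the 24 h pair, so probe-sets can pass too easily. A T3 effect that changes with time and a single deviating culture cannot be told apart here.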

How the results depend on the processing

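Without the 24 h pair 3 probe-sets were higher and 1 lower with T3, and leaving out each pair gave 0 to 3 higher and 0 to 1 lower. Over the same alternatives the mean log2 difference changed sign for Scg5 (range -0.84 to 0.23), Vgf (-0.15 to 0.60) and Pam (-0.41 to 0.046), each by the 24 h pair, and for Chga (-0.19 to 0.55), by the 6 h or the 16 h pair. With 32 added to every signal Chga was at -0.003. Chgb turned to 0.30 with the 48 h pair included. Without the time point as a replicate block the T3 test called 0 probe-sets (93 at an unadjusted p under 0.05), and no member changed its side of the threshold. For the hours, 316 rising and 76 falling probe-sets became 41 and 14 with quantile normalization, 129 and 33 with 32 added, 6 and 2 without the filter, and 1916 and 1542 when arrays were treated as independent, where Scg3 fell (adjusted p = 0.0360). They became 0 and 0 without the variance trend, on the mean of each time point, on the untreated arrays alone and on untransformed hours. Leaving out each time point gave 0 to 2415 rising and 0 to 2566 falling, and Cpe ranged from -0.11 to 0.18, its sign changing without the 6 h arrays. In the comparison of 24 h with the earlier pairs 579 larger and 761 lower became 0 and 0 without the variance trend. Beyond 2-fold, the higher and lower counts in the order of the time points were 15 and 8, 14 and 9, 232 and 521, then 12 and 18 when 32 was added. At 1.6-fold there were 373 and 233, 333 and 269, 1883 and 1904, then 532 and 234. Median centring gave 84 and 106 at 48 h. The causes were not tested.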
